A study of Mus musculus with 40 samples.

Results

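The gene for fibroblast growth factor receptor 1, Fgfr1, lies on mouse chromosome 8 in a gene-rich stretch between positions 12757000 and 27057000 of the GRCm38 genome. The members described here are the protein-coding genes that start in that stretch, without Gas6, and that reached a deposited TPM of at least 1 in 4 or more of the 40 tumours. They were chosen by that rule, and the stretch itself was chosen from a coordinated rise seen in p53-null tumours, so the p53-null values below are a description and carry no test. Of 158 protein-coding genes that start in the stretch, 80 were members. Gas6 was left out by the rule, and 77 genes stayed under the TPM filter, 40 of them defensin genes. Of those 77 genes, 64 reached a TPM of 1 in 0 tumours. Among the members, 48 had a TPM of at least 1 in all 40 tumours and 10 reached it in fewer than 20. The deposited tables held 43346 genes, and 14151 nuclear protein-coding genes passed the same filter.

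RNA was sequenced from spontaneous mammary tumours of MMTV-Wnt1 mice, in which the promoter of the mouse mammary tumour virus drives the Wnt1 ligand mainly in mammary epithelium. All 40 tumours carried that transgene. The p53-null tumours lacked Trp53, the p21-null tumours lacked Cdkn1a, and the wild-type tumours kept both genes. Doxorubicin, an anthracycline drug that traps topoisomerase II on DNA and so leaves double-strand breaks, was injected into the peritoneum at 4 mg/kg on each of 5 days, and treated tumours were collected 24 h after the last dose. There were 6 doxorubicin-treated p53-null tumours from 5 mice and 6 untreated p53-null tumours from 4 mice. The p21-null tumours numbered 10 with doxorubicin, from 9 mice, and 6 untreated, from 5 mice. The wild-type tumours numbered 6 with doxorubicin, from 5 mice, and 6 untreated, from 6 mice. The labels used here give no age and do not say which part of Trp53 or Cdkn1a was deleted. Tumours are named here by the treatment and the number in their titles, and the plots give the number alone. Titles that share a number were taken as tumours of 1 mouse, and 6 mice had 2 such tumours.

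Per the labels, both null genotypes were sequenced from one library kit and the wild-type tumours from a kit for total RNA, so wild type and library kit cannot be told apart. Nuclear protein-coding genes took 79.6% to 86.0% of all TPM in p53-null libraries, 81.9% to 86.3% in p21-null libraries and 7.72% to 10.7% in wild-type libraries. Values were therefore rescaled so that nuclear protein-coding genes summed in each tumour to the total that TPM has over all genes, called the protein-coding scale below. Read depth is unknown, since the files give TPM without counts. Epithelial markers were present in all 40 tumours, with the summed level of 10 luminal genes between 3086 and 7239 and that of 9 basal genes between 1854 and 5749.7 on that scale. Trp53 read 44.0 to 88.1 in p53-null tumours, 66.9 to 135.9 in p21-null tumours and 72.8 to 104.4 in wild-type tumours, and Cdkn1a read 221.4 to 328.5 in doxorubicin-treated p21-null tumours, so values per gene do not check the genotypes.

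Fgfr1 encodes a receptor tyrosine kinase that binds fibroblast growth factors with heparan sulphate and signals through the docking protein Frs2 to the Ras and MAP kinase cascade. The human genes matching the distal end of the stretch lie together on chromosome arm 8p, a region that is amplified in a subset of breast cancers and that also holds NSD3 and ZNF703, the human counterparts of Nsd3 and Zfp703. Genes that match the proximal end lie on human chromosome 13, where CUL4A, LAMP1 and TFDP1 are neighbours. A further 7 members, Ckap2 and Nek3 among them, were on a list of human 13q14 genes. In MMTV-Wnt1 mice infected with the virus itself, Fgf3 and Fgf8 are known as genes that proviral insertion activates and that cooperate with Wnt1. DNA was not analysed here.

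The members fall into 4 blocks separated by gaps of at least 1 Mb without a member, a division made after the data were seen. The first block holds 24 genes from Atp11a at 12.76 Mb to Myom2 at 15.06 Mb, and the second 8 genes from Mcph1 at 18.60 Mb to Defb3 at 19.29 Mb. The third holds 24 genes from Defa37 at 21.57 Mb to Sfrp1 at 23.41 Mb, and the fourth 24 genes from Tcim at 24.44 Mb to Plpbp at 27.04 Mb. Fgfr1 lies in the fourth block (ENSMUSG00000031565, chr8:25513654-25575718, plus strand). Lamp1, which encodes the main membrane glycoprotein of lysosomes, was the member with the highest median in p53-null and p21-null tumours, treated or not, and Fgfr1 was among the 5 highest in all 6 groups. The 6 defensin genes that passed the filter, Defa37 among them, and Fam90a1a belong to gene families with related copies, so their values are uncertain. Libraries of the null genotypes were not stranded, so values of Angpt2, which lies inside Mcph1, and of the neighbours Lamp1 and Grtp1 or Smim19 and Slc20a2 may share reads.

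Promoter sequences were printed for a member of the first block and a member of the third that the results below turn on. Each runs from 250 bases before to 50 bases after the start of transcription, from RefSeq on GRCm38.p6, in the direction of the gene. Capitals mark the E-box CACGTG in the Lamp1 promoter (chr8:13158911-13159210, plus strand) and the GC box GGGCGG and the CCAAT box, on either strand, in the Ckap2 promoter (chr8:22185770-22186069, minus strand).
Lamp1: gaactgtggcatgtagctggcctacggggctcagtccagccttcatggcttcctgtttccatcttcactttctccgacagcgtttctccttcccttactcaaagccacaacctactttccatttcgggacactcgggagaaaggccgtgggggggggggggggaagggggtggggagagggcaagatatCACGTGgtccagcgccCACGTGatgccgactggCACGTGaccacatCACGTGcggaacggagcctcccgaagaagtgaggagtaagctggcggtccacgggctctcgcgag
Ckap2: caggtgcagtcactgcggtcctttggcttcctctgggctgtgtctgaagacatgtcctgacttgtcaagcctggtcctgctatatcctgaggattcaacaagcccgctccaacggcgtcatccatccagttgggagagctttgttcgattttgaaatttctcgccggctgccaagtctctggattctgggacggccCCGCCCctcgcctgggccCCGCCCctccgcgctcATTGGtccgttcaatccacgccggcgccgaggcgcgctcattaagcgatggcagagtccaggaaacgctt
The Lamp1 window held 4 E-boxes and the Ckap2 window 2 GC boxes and 1 CCAAT box. The promoter table listed 25 of the 80 members. Counting both strands, the GC box GGGCGG was in the promoters of 13 of those 25 members (52%) and of 38.2% of 27025 listed genes, and CCAAT in 9 (36%) against 41.1%. The E-box CACGTG was in 3 (12%) against 8.09%, and the motif TATAAA in 2 (8%) against 15.7%. The motifs do not overlap one another in their letters. These are matches of letters, not sites of binding.

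For each member and tumour, the log2 difference from the median of the tumour's own group was taken on log2(value + 1), on the protein-coding scale, which understates the difference of low genes. A tumour was called coordinated where the median over the 80 members was at least 0.3 in size and at least 75% of members lay on that side. By that rule 1 p53-null tumour rose and 1 fell, both untreated, while 0 of 16 p21-null tumours and 0 of 12 wild-type tumours did either. The per-tumour median ran from -0.65 to 1.49 in p53-null tumours (SD 0.52, n = 12), from -0.14 to 0.28 in p21-null tumours (SD 0.12, n = 16) and from -0.10 to 0.05 in wild-type tumours (SD 0.05, n = 12). The spread was thus widest in the genotype from which the stretch was chosen.

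**Figure D1:**
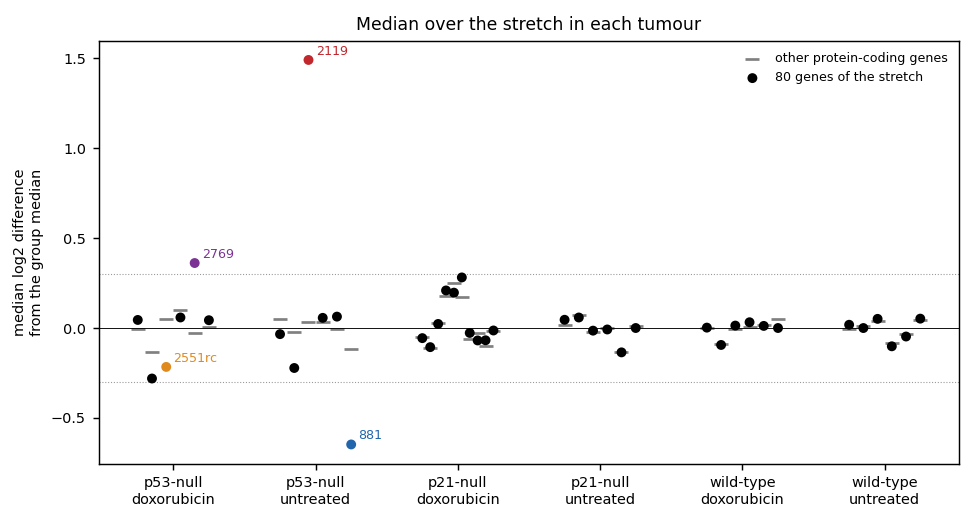
Median log2 difference from the group median over the 80 genes of the stretch, with 1 point for each of the 40 tumours in 6 groups. Tumour Untreated_2119 lies at 1.49 and tumour Untreated_881 at -0.65, both untreated p53-null, while the p21-null tumours lie between -0.14 and 0.28 and the wild-type tumours between -0.10 and 0.05.

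The untreated p53-null tumour Untreated_2119 carried the rise. Its median over the members was 1.49, and 75 of 80 members (93.75%) lay above the group median, where 55.9% of other protein-coding genes did. In this tumour 58 of the 80 members were at least 1 above the group median, a difference that 2.83% of all 14151 genes reached. This contrast chose the stretch, so the count is not read against that share. Of the 61 members with a group median of 5 or more, all 61 were higher in tumour Untreated_2119 than the group median and 51 by at least 1.

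The rise in tumour Untreated_2119 was uneven along the stretch. The third block had a median of 2.45 and the fourth of 1.54, and in each all 24 genes were above the group median and 21 by at least 1. The first block had a median of 1.06, with 20 of 24 genes above and 14 by at least 1, and the second block 0.35, with 2 of 8 by at least 1. Chromosome 8 outside the stretch had a median of -0.16 and all other protein-coding genes 0.03. The 15 genes of other biotypes inside the stretch, which are not members, had a median of 1.02, and 13 of them lay above the group median. They lie in the same chosen stretch and may share reads with members in libraries that were not stranded. Their values in p53-null tumours are therefore a description too.

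**Figure D2:**
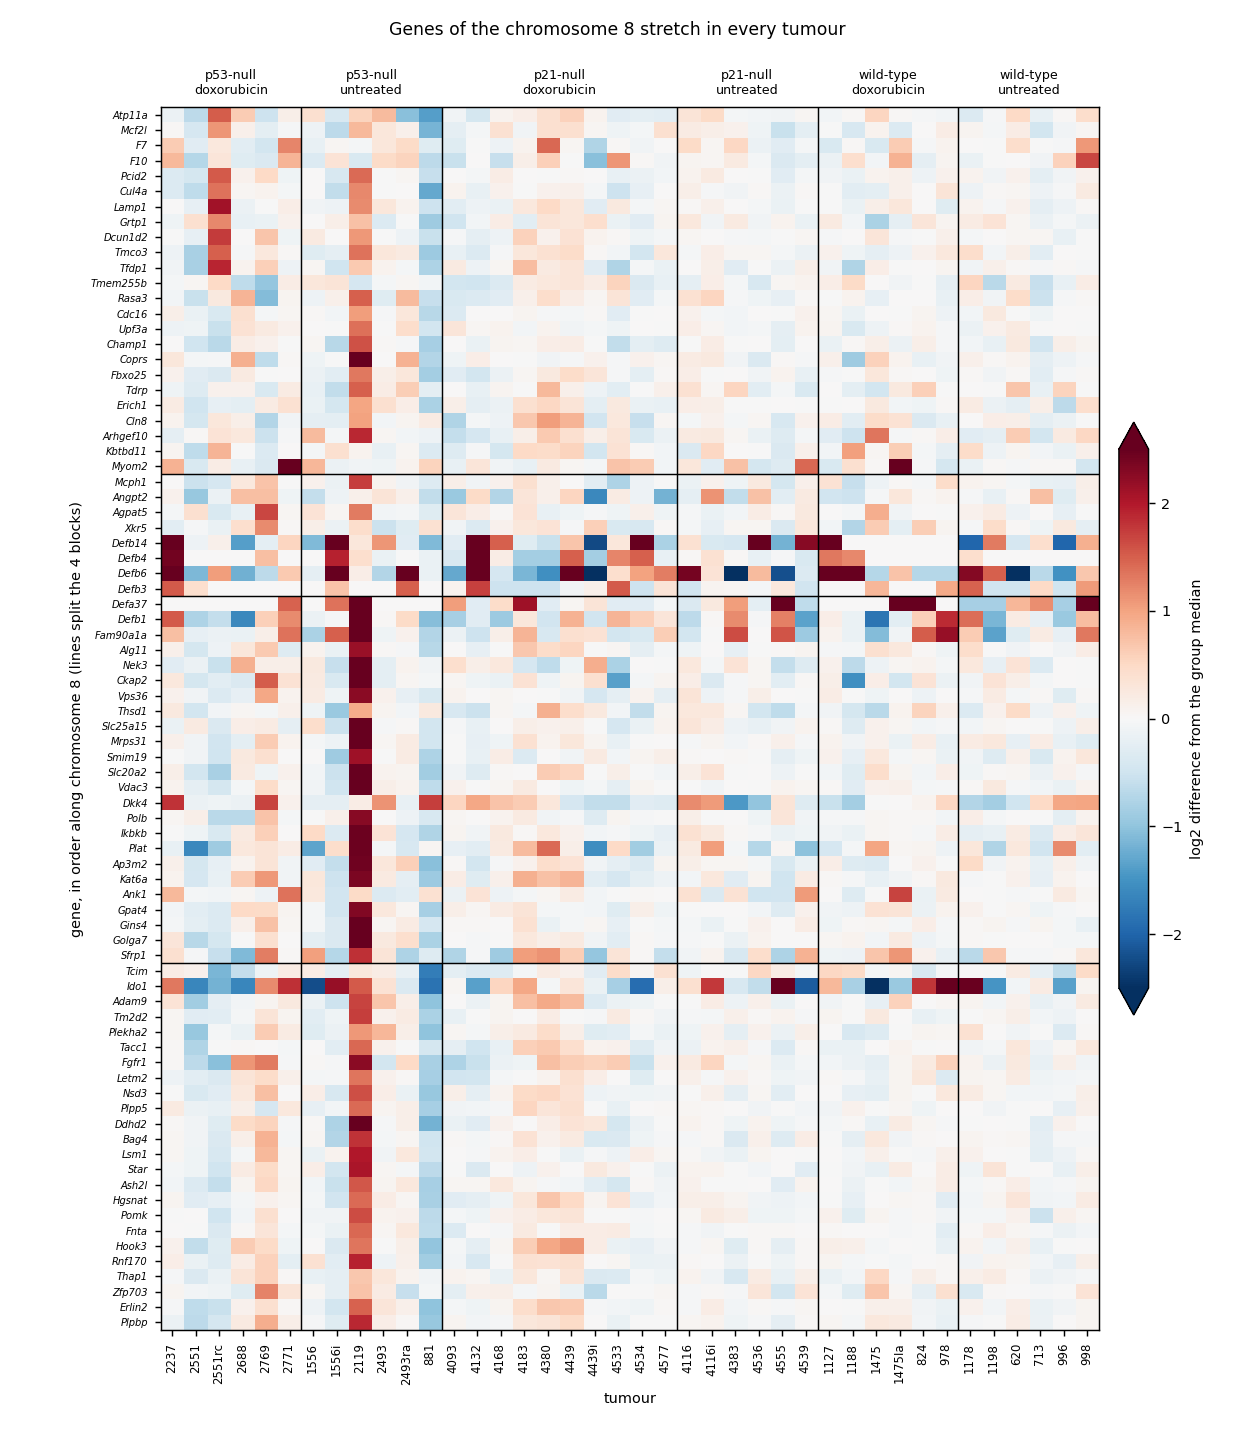
Log2 difference from the group median for the 80 genes in chromosomal order (rows) in each of the 40 tumours (columns), grouped by genotype and treatment. Colour gives the size and direction. Tumour Untreated_2119 is high along most of the stretch, with a median of 2.45 in the third block, tumour Untreated_881 is low along it, and tumour Doxo_2551rc is high only near its start.

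A running median over 11 consecutive protein-coding genes gave the position of the rise. It peaked at 2.64 at Nek3, 9.37 Mb from the start of Atp11a, and its lowest value within the stretch was 0.28. It stayed at or above 1 from Dcun1d2 to Kbtbd11, over 1.76 Mb and 16 windows, and from Defb3 to Adgra2, over 7.79 Mb and 50 windows. At or above 0.3 it ran from Evi5l at 4.17 Mb, before the stretch, to Angpt2, and from Defb14 to Eif4ebp1 at 27.26 Mb. Of the 81 windows centred in the stretch, which count Gas6 too, 66 were at or above 1 in tumour Untreated_2119, 12 in tumour Doxo_2551rc and 0 in each of the other 38 tumours.

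At the edges, Tubgcp3, the last passing gene before the stretch, differed by 1.53 in tumour Untreated_2119, and Atp11a, the first member and a phospholipid flippase, by 0.55. At the distal end, the last member Plpbp, a pyridoxal phosphate binding protein, differed by 1.89. The next genes beyond it were Adgra2 at 3.41, Brf2 at 1.70 and Rab11fip1 at 0.14. Edge genes other than Atp11a and Plpbp were picked by position only.

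**Figure D3:**
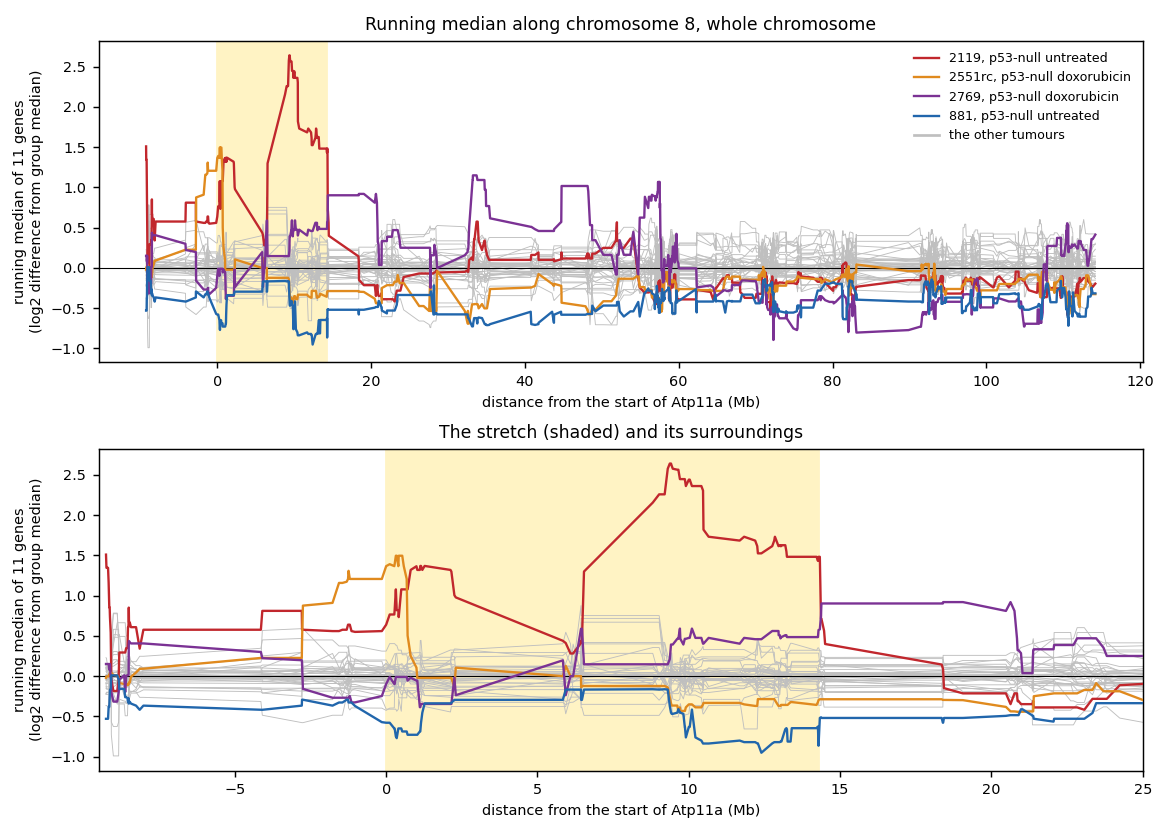
Running median of the log2 difference over 11 consecutive genes, plotted by distance from the start of Atp11a along chromosome 8, for the p53-null tumours named in the panels and the other tumours. Tumour Untreated_2119 peaks at 2.64 within the stretch, tumour Doxo_2551rc peaks at 1.5 near its start, and tumour Doxo_2769 peaks at 1.15 far beyond its end.

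Fgfr1 was the most abundant gene of the fourth block in tumour Untreated_2119. It read 611.0 there, and 129.9, 125.7, 92.5, 181.5 and 72.0 in the other untreated p53-null tumours Untreated_1556, Untreated_1556i, Untreated_2493, Untreated_2493ra and Untreated_881. Doxorubicin-treated p53-null tumours read 123.1 (Doxo_2237), 75.9 (Doxo_2551), 57.7 (Doxo_2551rc), 260.3 (Doxo_2688), 295.4 (Doxo_2769) and 117.4 (Doxo_2771). Tumour Untreated_2119 stood above every other tumour of the 40, and Doxo_2769 and Doxo_2688 were the next p53-null tumours in order.

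In the other genotypes Fgfr1 read 55.0 to 161.6 (median 95.3) in doxorubicin-treated p21-null tumours and 101.7 to 166.0 (median 114.8) in untreated ones. Wild-type tumours read 180.7 to 314.7 (median 212.2) with doxorubicin and 158.3 to 212.9 (median 181.2) without. Treated and untreated tumours overlapped in both genotypes. The change with doxorubicin was -0.31 ± 0.35 (SE, adjusted p = 0.71) in p21-null mice and 0.32 ± 0.38 (adjusted p = 0.73) in wild-type mice, by limma with Benjamini-Hochberg adjustment over 19944 genes. The 95% intervals ran from -1.01 to 0.40 in p21-null and from -0.45 to 1.09 in wild-type mice, with a spread that includes the p53-null tumours. With p53-null mice left out of the fit they ran from -0.74 to 0.12 in p21-null (limma adjusted p = 0.41) and from -0.15 to 0.79 in wild-type mice (adjusted p = 0.47).

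Genes near Fgfr1 that encode regulators of chromatin and of RNA were also high in tumour Untreated_2119. Nsd3, a histone H3 lysine methyltransferase, differed by 1.62 from its group median, Ash2l, a subunit of the lysine methyltransferase complexes of the MLL family, by 1.55, and Kat6a, a histone acetyltransferase, by 2.36. Kat6a read 70.8 in tumour Untreated_2119 and 6.4 to 15.9 in the other untreated p53-null tumours, and did not overlap them. Lsm1, which takes part in the decapping of mRNA, differed by 2.01. Zfp703, a transcriptional repressor, differed by 0.71 only, with 47.8 in tumour Untreated_2119 against 18.9 to 33.4 in the rest of its group.

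Among the other members of the matching human 8p region, Ddhd2, a phospholipase, differed by 2.54, Bag4, an HSP70 co-chaperone, by 1.80, Tacc1, a centrosomal coiled-coil protein, by 1.43, and Adam9, a membrane metalloprotease, by 1.68. Fnta, a farnesyltransferase subunit, differed by 1.43, Hgsnat, a lysosomal acetyltransferase, by 1.41, and Hook3, an adaptor of dynein, by 1.34. Further towards the third block, Vdac3, a channel of the outer mitochondrial membrane, differed by 2.56, Ikbkb, a kinase of the NF-kappaB pathway, by 2.45, Polb, the DNA polymerase of base excision repair, by 2.28, and Plat, tissue plasminogen activator, by 2.45. Sfrp1, a secreted inhibitor of Wnt ligands, differed by 1.82, and Ank1, an ankyrin of the red cell membrane, by 0.48. All 37 members that the list of human 8p11-p12 genes held lay above the group median in tumour Untreated_2119, 33 by at least 1, with a median of 1.80. The 7 members on the list of human 13q14 genes also all lay above the group median there, 6 by at least 1, with a median of 2.58. In the same tumour the median was 1.08 over the 15 members of the 13q34 list and 1.01 over the 11 of the 8p23 list.

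Among the 61 members with a group median of 5 or more, the largest difference in tumour Untreated_2119 lay at Ckap2. Its neighbour Nek3, with a group median of 4.1, was also far above the rest of the group. Ckap2, which encodes a protein of the mitotic spindle, read 241.3 in tumour Untreated_2119 and 16.3 to 25.3 in the other 5 untreated p53-null tumours, a difference of 3.43 from the group median. Nek3, a kinase of the NIMA family, read 42.1 in tumour Untreated_2119 and 2.4 to 5.0 in the others, a difference of 3.08. Vps36, a subunit of the ESCRT-II complex that was picked after its values were seen, read 141.6 against 22.0 to 33.3. None of these 3 genes overlapped between tumour Untreated_2119 and the rest of its group.

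In the first block the rise of tumour Untreated_2119 was smaller. Lamp1 differed by 1.18, with 680.2 in tumour Untreated_2119 and 209.0 to 362.9 in the others. Cul4a, a scaffold of ubiquitin ligases, differed by 1.21, Cdc16, a subunit of the anaphase-promoting complex, by 1.04, and Tfdp1, the partner of E2F factors, by 0.65. In the second block Mcph1, which encodes the chromosome condensation regulator microcephalin, differed by 1.73 and Angpt2, a ligand of the Tie2 receptor of blood vessels, by 0.13. The members below the group median were Tmem255b at -0.42, F10 at -0.37, Myom2 at -0.09 and F7 at -0.05, named after their values were seen.

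**Figure D4:**
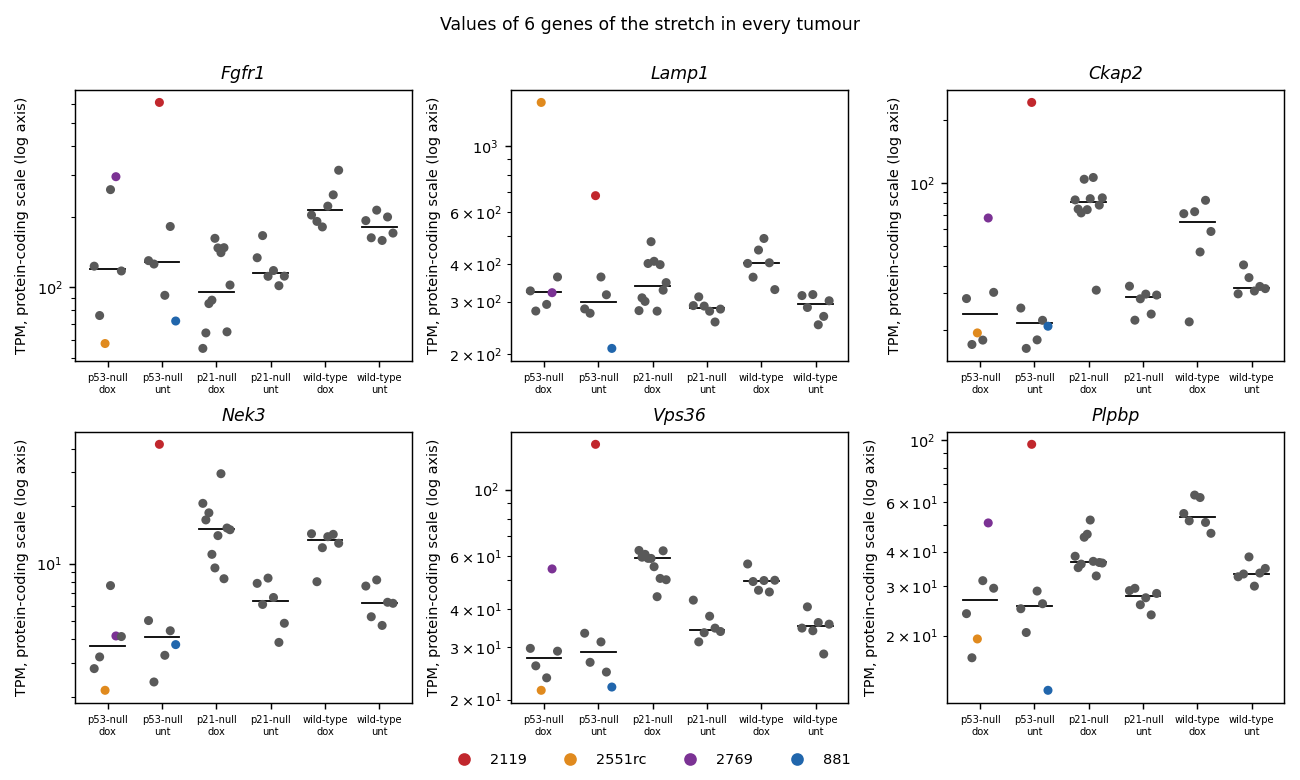
Values of Fgfr1, Lamp1, Ckap2, Nek3, Vps36 and Plpbp on the protein-coding scale (log axis) in each of the 40 tumours, with the 6 groups side by side. Tumour Untreated_2119 is the highest point for Fgfr1 (611.0), Ckap2 (241.3), Nek3 (42.1), Vps36 (141.6) and Plpbp (96.9), and tumour Doxo_2551rc is the highest for Lamp1 (1398).

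Markers of other cell types moved with tumour Untreated_2119 in part. The summed level of the 9 basal markers was 4154, the highest of its group, with 7 of the 9 above the group median, and that of 7 endothelial markers 181.8, also the highest, with all 7 above. The sum of 6 neutrophil markers was 21.1, the lowest, with all 6 below, and the B cell and adipocyte sums were lowest too. Its 10 luminal, 11 macrophage and 10 fibroblast markers held ranks 4, 3 and 3 of 6 from the lowest. The macrophage marker Lyz2 lies at 117.28 Mb of chromosome 10, where the running median of this tumour was 3.70. The part of Lyz2 in the macrophage sum was not tested. No marker list had a gene at 0 in all tumours of a group. The part of these cell types in the rise was not tested, and in bulk tumours fewer cells of a type and less RNA per cell cannot be told apart.

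The untreated p53-null tumour Untreated_881 was low along the stretch. Its median over the members was -0.65, and 71 of 80 (88.75%) lay below the group median. In tumour Untreated_881, 49 members were at least 0.5 below it, a difference that 18.7% of all genes reached, again in a contrast that chose the stretch. Block medians were -0.62, -0.23, -0.46 and -0.83 in order along the chromosome. Of the 15 genes of other biotypes 14 lay below, with a median of -0.79. The running median was lowest at -0.95, at Tacc1.

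The low values of tumour Untreated_881 were not limited to the stretch. The rest of chromosome 8 had a median of -0.40, other protein-coding genes -0.12, and the other chromosomes medians between -0.40 and 0.01. Fgfr1 read 72.0, the lowest of its group, Cul4a 30.1, Ddhd2 5.4 and Atp11a 25.8, each also the lowest of the 6. In tumour Untreated_881 both the luminal sum, 3086, and the basal sum, 1871, were the lowest of the group, and all 6 skeletal muscle markers were above their group medians, with a mean difference of 2.29. The part of tissue make-up in these values was not tested.

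The doxorubicin-treated p53-null tumour Doxo_2769 was raised over part of the stretch and missed the call. Its median was 0.36 with 55 of 80 members (68.75%) above the group median. Only 9 members were at least 1 above it, and 2.53% of all genes were. Since p53-null values chose the stretch, the count is not read against that share. The block medians were -0.21, 0.74, 0.47 and 0.50 in order, and 12 of 15 genes of other biotypes were above, with a median of 0.96. Fgfr1 read 295.4, Zfp703 70.4, Ckap2 68.0, Sfrp1 55.3 and Plpbp 50.7 in tumour Doxo_2769, each above the other 5 tumours of its group. In contrast to tumour Untreated_2119, Lamp1 read 321.5, inside the range of the other tumours.

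Along chromosome 8, tumour Doxo_2769 stayed at or above 0.3 from Ckap2 at 22.17 Mb to Gsr at 33.65 Mb, past the end of the stretch. On this chromosome it had 22 windows at or above 1, all of them outside the stretch, with the highest at Ankrd37 (1.15). Its fibroblast sum, 885.9, and its macrophage sum, 734.8, were the lowest of the group, with 9 of 10 and 11 of 11 markers below the group medians. The T cell, B cell, endothelial and adipocyte sums were also the lowest. Their part in the result was not tested.

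In the doxorubicin-treated p53-null tumour Doxo_2551rc a rise was seen at the start of the stretch alone. The median over all members was -0.22, with 20 of 80 above the group median, but the first block had a median of 0.32 with 18 of 24 above. The third and the fourth block had medians of -0.36 and -0.34 with 0 of 24 above in each. In tumour Doxo_2551rc 10 members were at least 1 above the group median, and 9 of the 10 lay in the first block. Of all genes 4.97% were as far above, but p53-null values chose the stretch, so the count is not read against that share. The running median was at or above 1 from Col4a1 at 11.20 Mb, before the stretch, to Tmem255b at 13.44 Mb, over 2.24 Mb.

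Lamp1, whose promoter with 4 E-boxes is printed above, read 1398 in tumour Doxo_2551rc, and 326.0, 279.0, 293.6, 321.5 and 362.9 in the other tumours of its group (Doxo_2237, Doxo_2551, Doxo_2688, Doxo_2769 and Doxo_2771). That was the highest Lamp1 value of the 40 tumours. Tfdp1 read 318.7 against 47.3 to 126.8, Atp11a 290.6 against 64.0 to 157.0 and Cul4a 190.5 against 46.9 to 77.9, all without overlap. Cdc16, further along the block, read 49.7 against 57.6 to 86.3 and Fgfr1 57.7 against 75.9 to 295.4, both the lowest of the group. Another tumour of the same mouse, Doxo_2551, had a median of -0.28 over the members and -0.39 in the first block, so the rise in the first block was seen in 1 of the 2 tumours.

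Tumour Doxo_2551rc also stood apart in marker levels. Its summed B cell markers read 107.1, the group's highest, against a group median of 4.40, its fibroblast sum 7129, its macrophage sum 4212 and its T cell sum 185.2, each the highest of the 6. The endothelial, adipocyte and red cell sums were the highest as well. Every one of the 5 B cell, 9 T cell and 10 fibroblast markers was above its group median. The part of these cells in the high first block was not tested.

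Among p21-null tumours the highest member median was 0.28, in the doxorubicin-treated tumour Doxo_4439, with 61 of 80 members above the group median. Other protein-coding genes of tumour Doxo_4439 had a median of 0.17, and 70.7% of them were above. The other tumour of that mouse, Doxo_4439i, had -0.03. Doxorubicin-treated p21-null tumours Doxo_4183 and Doxo_4380 followed with 0.21 and 0.20 over the members and 0.18 and 0.25 over other genes, so these tumours were as high outside the stretch. In the second block tumour Doxo_4132 reached 1.10, a block of 8 genes with 4 defensins. No p21-null or wild-type tumour had a window of the running median at or above 1 in the stretch.

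The effect of doxorubicin on the members was tested in wild-type and p21-null mice, whose values the choice of the stretch did not use. The fit of all 34 mice takes 1 estimate of spread per gene from all 6 groups, so it includes the wide values of the p53-null tumours that chose the stretch. In that fit, 0 of 80 members rose and 0 fell in wild-type mice at an adjusted p of at most 0.05 (limma, Benjamini-Hochberg), where 3.25% of 19944 genes rose and 1.67% fell. Unadjusted p-values of 6 members were under 0.05, and the smallest adjusted p was 0.065, for Tmem255b. In p21-null mice 2 members rose and 0 fell, where 3.82% of genes rose and 2.77% fell. The median log2 change of the members was 0.03 in wild-type and -0.05 in p21-null mice, beside 0.02 and -0.06 over all genes tested. The p-values set the difference between treated and untreated mice against the spread of mice within the 6 groups of one study.

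Leaving the p53-null mice out of the fit, a setting added after the data were seen, raised the number of members called. That fit held 25 mice with 21 residual degrees of freedom and tested 79 of the members. In wild-type mice 6 members rose (7.59%) and 0 fell, where 4.01% of 19535 genes rose and 1.67% fell. They were Plpbp (limma adjusted p = 8.9e-05), Vps36 (0.00053), Rasa3 (0.013), Nek3 (0.019), Lamp1 (0.022) and Tmem255b (0.047). In p21-null mice 5 members rose (6.33%) and 1 fell, where 4.77% of genes rose and 4.96% fell. Vps36 (limma adjusted p = 2.6e-06), Plpbp (0.00030), Ckap2 (0.00035), Nek3 (0.00042) and F7 (0.040), which encodes coagulation factor VII, rose, and Mcf2l (0.044) fell. The log2 changes themselves are the same in both fits, and the SE of Plpbp in wild-type mice was 0.094 without p53-null mice and 0.27 with them. Tmem255b, F7, Mcf2l and Rasa3 were named after their values were seen. F7 had a TPM of at least 1 in only 10 tumours. Its median was 1.44 in treated p21-null tumours, the highest of the groups, and 0.47 in untreated ones. It passed the filter largely through the group where it was high, so its call is not read as support for a rise of the members.

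Markers of other cell types moved with doxorubicin in the same tumours. In p21-null tumours the summed macrophage markers had a median of 3464 with doxorubicin and 1607 without, with 11 of 11 markers higher, and the neutrophil markers 708.2 with and 199.6 without, with 6 of 6 higher. The summed red blood cell markers read 5.13 to 63.1 in treated and 879.5 to 21264 in untreated p21-null tumours, without overlap and with 5 of 5 lower. The basal sum had a median of 3936 in treated and 2904 in untreated p21-null tumours, with 4 of 9 markers higher. In wild-type tumours the macrophage sum read 1850 to 4432 with doxorubicin and 1207 to 1704 without, and the adipocyte sum 84.2 to 279.5 with and 42.2 to 77.1 without, both without overlap. Their part in the changes of the members was not tested.

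The 2 members that rose in p21-null mice in the fit of all 34 mice were Ckap2 and Nek3, neighbours in the third block. Ckap2 (ENSMUSG00000037725, chr8:22168160-22185819, minus strand) read 30.8 to 106.0 (median 80.6) in doxorubicin-treated p21-null tumours and 22.2 to 32.2 (median 28.6) in untreated ones. The treated tumour Doxo_4533, at 30.8, was the only one of 10 inside the untreated range, and the other 9 read 71.8 or more. The mean of log2(value + 1) was 6.23 ± 0.49 in treated and 4.82 ± 0.12 in untreated mice (SD, n = 9 and 5), a rise of 1.41 ± 0.41 (SE, limma adjusted p = 0.031).

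Nek3 (ENSMUSG00000031478, chr8:22128283-22166435, minus strand) read 8.3 to 29.6 (median 15.2) with doxorubicin and 3.9 to 8.4 (median 6.4) without in p21-null tumours. The ranges met at 1 tumour on each side. The rise was 1.15 ± 0.35 (SE, limma adjusted p = 0.039). In that fit, leaving out 1 mouse at a time kept Ckap2 under 0.05 in 8 of 14 fits (adjusted p up to 0.071) and Nek3 in 4 of 14 (adjusted p up to 0.11). The fits that lost Ckap2 left out 1 of the 5 untreated mice or the treated mouse of Doxo_4577.

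In wild-type tumours Ckap2 read 71.2, 21.8, 72.8, 46.8, 82.5 and 58.6 with doxorubicin and 29.6 to 40.6 (median 31.7) without. Tumour Doxo_1188, at 21.8, lay below every untreated tumour and the other 5 treated tumours above them all. The change was 0.68 ± 0.44 (SE, limma adjusted p = 0.45). Nek3 read 8.0 to 14.3 (median 13.3) with doxorubicin and 4.7 to 8.2 (median 6.2) without, a change of 0.86 ± 0.37 (limma adjusted p = 0.20), and the ranges met at tumour Doxo_1188. The difference of the responses, p21-null minus wild-type, was 0.72 (95% interval -0.50 to 1.94) for Ckap2 and 0.29 (-0.75 to 1.33) for Nek3, with limma adjusted p of 0.71 and 0.87. These intervals too include the spread of the p53-null tumours. Without the p53-null mice they were -0.01 to 1.46 for Ckap2 and -0.32 to 0.90 for Nek3, with limma adjusted p of 0.46 and 0.71. The number of members that differed in response at an adjusted p of at most 0.05 was 0 of 80 in the fit of all mice (limma, 3 at an unadjusted p under 0.05), where 0.14% of all genes did. It was 0 of 79 without the p53-null mice (limma, 4 at an unadjusted p under 0.05), where 0.0819% of genes did.

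Vps36, the next member beyond Ckap2 on the other strand, read 44.0 to 62.8 with doxorubicin and 31.1 to 42.9 without in p21-null tumours, and 45.6 to 56.6 with and 28.4 to 40.7 without in wild-type tumours. Plpbp read 32.7 to 51.9 with doxorubicin and 23.7 to 29.5 without in p21-null tumours, and 46.5 to 63.7 with and 30.1 to 38.3 without in wild-type tumours. For both genes every treated tumour lay above every untreated tumour in each genotype. In p21-null tumours these were the 2 members without overlap, where 2.22% of 14151 genes had every treated tumour above every untreated one. A share of 2 in 80 is near that share. In wild-type tumours there were 5 such members, with Golga7, Lamp1 and Rasa3 added, where the share of all genes was 3.73%. Of these, Vps36, Golga7 and Rasa3 were named after their values were seen.

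Those separations did not pass the test in the fit of all 34 mice. The change of Vps36 was 0.68 ± 0.24 (SE, limma adjusted p = 0.092) in p21-null and 0.51 ± 0.26 (adjusted p = 0.31) in wild-type mice. That of Plpbp was 0.51 ± 0.25 (limma adjusted p = 0.24) in p21-null and 0.64 ± 0.27 (adjusted p = 0.18) in wild-type mice. With only the groups compared in the fit, 4 of 77 members rose and 0 fell in p21-null mice, where 5.15% of 15486 genes rose and 4.32% fell. They were Vps36 (limma adjusted p = 5.5e-05), Ckap2 (0.00049), Plpbp (0.0029) and Nek3 (0.0037). A share of 4 in 77 is near the share of all genes that rose. In wild-type mice 6 of 75 rose and 0 fell in such a fit, where 3.64% of 18936 genes rose and 1.07% fell, namely Plpbp (limma adjusted p = 0.0018), Vps36 (0.0098), Nek3 (0.016), Rasa3 (0.023), Lamp1 (0.034) and Golga7 (0.043).

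**Figure D5:**
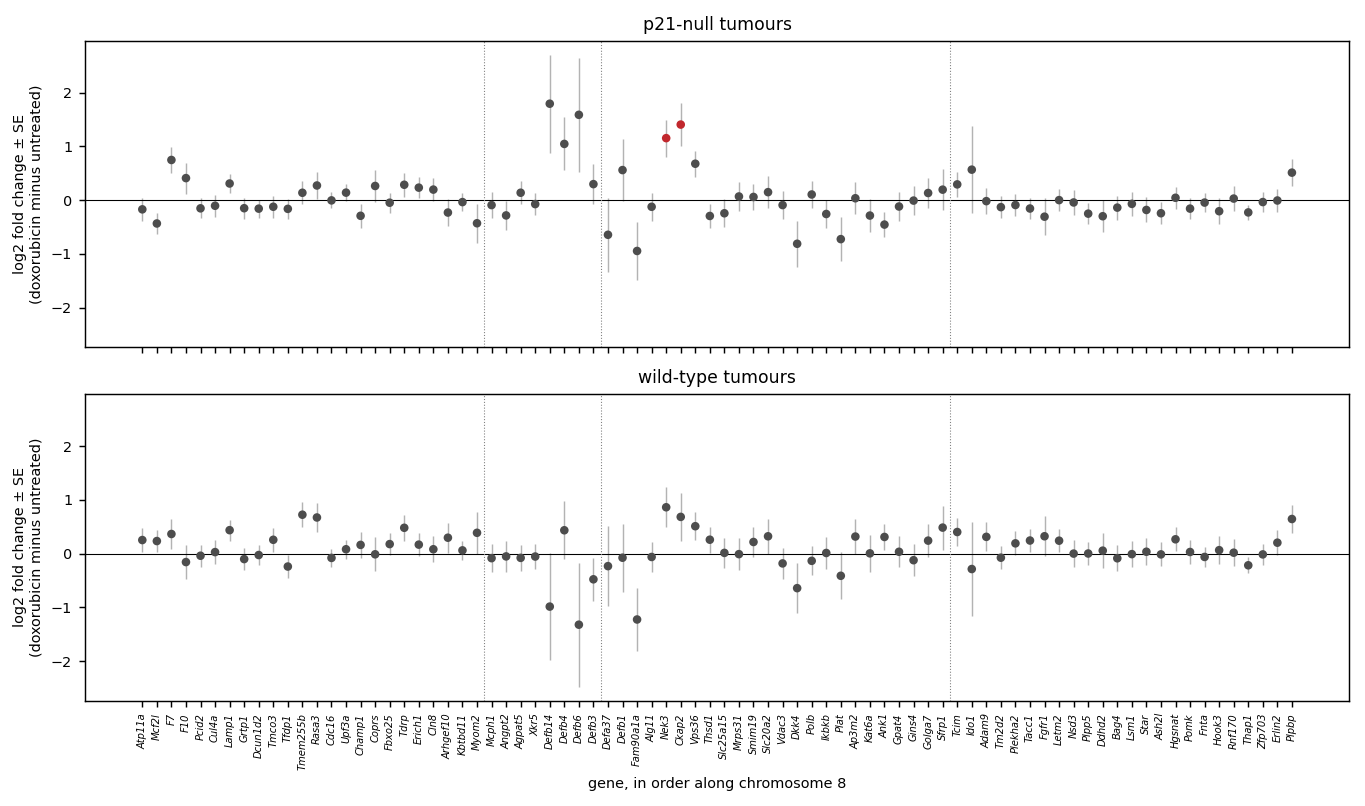
Log2 change with doxorubicin for the 80 genes in p21-null mice and in wild-type mice, in chromosomal order, with bars of 1 SE for each point, from the fit of all 34 mice, whose spread includes the p53-null tumours. Ckap2 (1.41) and Nek3 (1.15) are the genes past an adjusted p of 0.05 in p21-null mice, and none is past it in wild-type mice in that fit.

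In p53-null tumours, given without a test, Ckap2 read 17.0 to 68.0 (median 23.7) with doxorubicin and 16.3 to 241.3 (median 21.4) without. Nek3 read 2.2 to 7.7 with doxorubicin and 2.4 to 42.1 without, and Vps36 21.5 to 54.5 with and 22.0 to 141.6 without. Treated and untreated p53-null tumours overlapped for all 3. The median change of the members with doxorubicin was -0.14 in p53-null mice, beside 0.04 over all genes, of which 1.18% were called in either direction. Without tumour Untreated_2119 that median was 0.29 and without tumour Untreated_881 it was -0.41, so its sign rests on single mice.

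Between null genotypes, which share a library kit, the members' median difference p53-null minus p21-null was 0.11 with doxorubicin and 0.19 untreated, beside 0.11 and 0.01 over all genes. Of all genes, 15.3% were higher and 4.85% lower in treated p53-null than in treated p21-null mice, and 1.67% differed in untreated mice. Without tumour Untreated_2119 the untreated difference was -0.20 and without tumour Untreated_881 it was 0.50. Leaving out the mouse of tumours Doxo_2551 and Doxo_2551rc moved the treated difference to 0.19, and leaving out the mouse of tumour Doxo_2769 moved it to 0.04.

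The FGF pathway outside the stretch was measured through 38 tested genes, namely 8 ligands, 4 receptors, 8 adaptors and 18 feedback regulators or targets. None of the 38 changed with doxorubicin in wild-type mice by limma at an adjusted p of at most 0.05, with 3 at an unadjusted p under 0.05. Of all genes, 3.25% rose and 1.67% fell in those mice. In p21-null mice 0 rose and 2 fell, where 3.82% of all genes rose and 2.77% fell. Phlda1, which encodes a protein with a pleckstrin homology-like domain, fell by 0.72 ± 0.19 (SE, limma adjusted p = 0.015), and Plcg1, a phospholipase bound by receptor tyrosine kinases, fell by 0.53 ± 0.16 (limma adjusted p = 0.045). Leaving out 1 mouse at a time kept Phlda1 under 0.05 in 13 of 14 fits (adjusted p up to 0.068) and Plcg1 in 7 of 14 (adjusted p up to 0.17). Across 9 other settings Phlda1 kept its call in 9 and Plcg1 in 6. With p53-null mice left out of the fit, 5 FGF pathway genes were called in p21-null mice, where 9.73% of all genes were. In p53-null mice 0 changed, with 2 at an unadjusted p under 0.05, where 1.18% of all genes were called.

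Treated p53-null mice set against treated p21-null mice had 6 of the 38 genes higher and 0 lower, where 15.3% of all genes were higher. Spry4, a feedback inhibitor of Ras signalling, read 3.0 to 16.6 in treated p53-null and 1.8 to 4.8 in treated p21-null tumours, a rise of 1.15 ± 0.27 (SE, limma adjusted p = 0.0042). The other 5 were Il17rd (0.89, limma adjusted p = 0.0089), Spred2 (0.71, 0.014), Spred1 (0.38, 0.018), all feedback inhibitors, and the adaptors Sos1 (0.53, 0.0039) and Shc1 (0.36, 0.039). Without tumour Doxo_2688 the difference of Il17rd was 0.56, and Il17rd, Spred2 and Spred1 missed the threshold (limma adjusted p of 0.061, 0.052 and 0.056). Spred2 also missed it without tumour Doxo_2769 (limma adjusted p = 0.085). With only the groups compared in the fit 2 genes were called, Spry4 and Sos1. Between untreated mice of these genotypes 0 of 38 genes differed, with 7 at an unadjusted p under 0.05 (limma), where 1.67% of all genes differed. A share of 6 in 38 is near the share of all genes.

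Marker levels differed between the same treated groups. The summed fibroblast markers had a median of 3292 in treated p53-null and 1309 in treated p21-null tumours, with 10 of 10 markers higher. The endothelial sum was 146.2 in treated p53-null and 81.1 in treated p21-null tumours, with 6 of 7 higher, and the neutrophil sum was 144.2 in treated p53-null and 708.2 in treated p21-null tumours, with 6 of 6 lower. All 3 sums overlapped between the groups, and their part in the FGF pathway differences was not tested.

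Feedback targets in the tumours with high Fgfr1 were mixed. In tumour Untreated_2119 Dusp6, a phosphatase of ERK, differed by -0.06 from its group median, Spry2 by -0.19, Spry4 by 0.65, Etv4 by -0.32 and Etv5 by 0.75, the Etv genes encoding ETS factors downstream of FGF receptors. Of the other receptors Fgfr2 differed by 0.92, Fgfr3 by -0.28 and Fgfr4 by 2.34 in tumour Untreated_2119. In tumour Doxo_2769 Dusp6 differed by 0.42, Spry4 by -0.15, Etv5 by -0.13 and Fgfr3 by 2.16. Spry2 read 23.1 there against a group median of 23.4, and Etv4 115.6 against 97.8. Fgfr2 read 119.0 against a median of 58.0 and Fgfr4 0.09 against 1.15.

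The doxorubicin-treated p53-null tumour Doxo_2688 had an Fgfr1 of 260.3 with the genes around it near their group medians. Nsd3 read 31.0 there against 19.5 to 43.9 in the rest of its group, and the median of the members was 0.06. In tumour Doxo_2688 Spry4 differed by 1.56, Etv5 by 1.74 and Etv4 by 0.75 from the group medians. Dusp6 and Spry2 were near theirs, with 125.4 against a median of 121.5 and 25.3 against 23.4. The ligand Fgf3 read 35.7 in this tumour, and its part in these values was not tested. Across groups, median Fgfr2 was 58.0 and 73.2 in p53-null tumours with and without doxorubicin, 60.3 and 80.1 in p21-null and 197.1 and 183.5 in wild-type tumours. Etv5 had a median of 43.4 in treated and 105.2 in untreated p21-null tumours, a change of -1.01 ± 0.34 that did not pass (SE, limma adjusted p = 0.073). Fgfr3 and Fgfr4 were lower than Fgfr1 and Fgfr2 in the median of each of the 6 groups, on a scale that accounts for gene length.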

How the data were processed

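Each of the 40 tumours has a group in the labels. The authors deposited 1 table of TPM per tumour for 43346 genes, made with RSEM on mm10 per the submitters' processing notes, with Ensembl 79 in the file names. No RSEM version is given in the sources used here. TPM was rescaled over nuclear protein-coding genes, and 884 genes without a match to the annotation were left out.

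Members, lists and tests were chosen with earlier results of these data known. Named genes are the members of a fixed set of cancer-related and neighbouring genes, the first and last member, up to 6 members per doxorubicin contrast with the smallest adjusted p at or under 0.05, and FGF pathway genes past it. Others are said to be named after their values were seen.

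Tests used limma 3.58.1 in R 4.3.3 with statmod 1.5.0, with a mean-variance trend and robust variances, on log2(value + 1) averaged per mouse. The fit held 34 mice in 6 groups with 28 residual degrees of freedom and 19944 genes at 1 or more in at least 4 mice, with Benjamini-Hochberg adjustment at 0.05. The fit and the call of coordinated tumours were tested on simulated data. Alternatives were the deposited TPM, pseudocounts of 0.1 and 5, filters on low values, other centres and sizes, other sets of samples, a fit without p53-null mice (added after the data were seen), and leaving out each tumour or mouse.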

Additional observations from a re-analysis of the deposited data

Results flagged for a closer look

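In groups of 6 to 10 tumours, 28 values of 102 groups of values lay apart from the rest of their group by Dixon's gap test, which chance gives in about 1 group in 20. Many of the flags fall on p53-null tumours, whose values chose the stretch, and the values of 1 tumour are not independent of each other. The number of flags is therefore not read against that rate.

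Untreated p53-null tumour Untreated_2119 stood apart in the median over the 80 genes (1.49), in the median of the third block (2.45) and in Fgfr1 (611), Ckap2 (241), Nek3 (42.1), Vps36 (142), Lamp1 (680) and Frs2 (96.1), which encodes the docking protein of FGF receptors and lies on another chromosome. Gene values here are on the protein-coding scale. Tumour Doxo_2551rc stood apart in Lamp1 (1398) and Tfdp1 (319), and tumour Doxo_2769 in Ckap2 (68.0), Vps36 (54.5) and Zfp703 (70.4), both doxorubicin-treated and p53-null.

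The doxorubicin-treated p53-null tumour Doxo_2688 stood apart in Nek3 (7.66) and in the ligands Fgf3 (35.7) and Fgf8 (3.92). Untreated p21-null tumour Untreated_4116i was apart in Fgf3 (0.545) and Fgf8 (1.15), and untreated wild-type tumour Untreated_1178 in Fgf3 (0.224) and Fgf8 (0.224), all levels near or under 1.

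Among doxorubicin-treated p21-null tumours, Doxo_4533 was low in Ckap2 (30.8) and Doxo_4132 high in the second block (1.1). Among doxorubicin-treated wild-type tumours, Doxo_1188 was low in the median over the 80 genes (-0.0943), in the third block (-0.162), in Nek3 (8.03) and in Tfdp1 (64.6), and Doxo_1127 was high in the second block (0.178). Other protein-coding genes of tumour Doxo_1188 had a median of -0.0901 and the rest of chromosome 8 -0.1. Its median over the 80 genes was thus near that of its other genes. Untreated wild-type tumour Untreated_620 was low in the genes of other biotypes in the stretch (-0.165). The members' response to doxorubicin differed between p21-null and wild-type mice for 0 of 80 genes by limma, with 3 at an unadjusted p under 0.05, and for 0 of 79 with p53-null mice left out of the fit, with 4.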

How the results depend on the processing

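The rise of Untreated_2119 was called under all 11 other settings that kept that tumour, with a median between 0.65 and 1.61. Falls in p53-null tumours numbered 2 with a pseudocount of 0.1, with members at TPM of at least 5, with the median of the other tumours as centre and with the median of the genotype as centre (Doxo_2551 added each time). They numbered 3 with a size of 0.2 (Untreated_1556i and Doxo_2551 added) and 0 with no filter on low values. Rises in p53-null tumours numbered 2 with members at TPM of at least 5 (Doxo_2769 added). Rises in p21-null tumours numbered 1 with a pseudocount of 0.1, with members at TPM of at least 5 and with the median of the other tumours (Doxo_4439), and 2 with a size of 0.2 (Doxo_4183 and Doxo_4439).

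Members that rose with doxorubicin in wild-type mice numbered 1 with a pseudocount of 5 or with all 40 tumours as separate samples and 6 with only the groups compared in the fit or with p53-null mice left out of it. In p21-null mice they numbered 1 with no filter on low values, 4 with only the groups compared and 5 without p53-null mice, where 1 member fell. FGF pathway genes called in p21-null mice numbered 1 with a pseudocount of 5 or no filter and 5 without p53-null mice. With only the groups compared they numbered 1 for doxorubicin in wild-type mice and 2 for treated p53-null against treated p21-null mice. With deposited TPM they numbered 1 for untreated p53-null against untreated p21-null mice. Apart from the smaller sets of samples, the cause of these shifts was not tested.

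Leaving out each tumour or mouse in turn gave 0 to 1 rises (0 without Untreated_2119) and 0 to 2 falls (0 without Untreated_881, 2 without Doxo_2551rc) in p53-null tumours. Members that rose ran from 0 to 2 in p21-null mice and from 0 to 1 in wild-type mice (1 without Untreated_1178). The p21-null count fell below 2 without any 1 of the 5 untreated mice, and without the mouse of Doxo_4093, Doxo_4132, Doxo_4168, Doxo_4439, Doxo_4534 or Doxo_4577. FGF genes called ran from 0 to 4 in p21-null mice, from 4 to 10 in treated p53-null against treated p21-null mice (10 without Doxo_4183 or Doxo_4380), and from 0 to 1 in untreated ones (1 without Untreated_881). Without Doxo_2688, Il17rd, Spred1 and Spred2 missed the threshold (limma adjusted p of 0.061, 0.056 and 0.052). The median over the members changed sign with single mice left out, from -0.41 to 0.29 for doxorubicin in p53-null mice and from -0.20 to 0.50 for untreated p53-null minus p21-null mice. Ckap2, Nek3, Phlda1, Plcg1, Spry4, Sos1, Il17rd, Spred1 and Spred2 kept their direction under the settings run for them. Of the counts and medians that answer a comparison, 292 stayed within 1.5 times or the replicate spread and 51 moved past it. Of the values for single tumours and genes, 340 were unchanged, 36 fell short of the threshold and 5 moved beyond the replicate spread.

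No paired analysis was possible because the groups compared share no tumour numbers. Depth is unknown, and the wild-type kit cannot be told apart from the genotype.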

Other observations

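Tumour Untreated_2119 had 21 windows of the running median at or above 1 on other chromosomes, 19 of them on chromosome 10 between Zfc3h1 at 115.38 Mb and Mdm1 at 118.14 Mb (GRCm38), where the running median was 2.31 to 3.77. Of the 40 tumours 9 had more such windows on other chromosomes and 1 as many, with a range of 0 to 154. These genes were named after their values were seen. Frs2, the docking protein of FGF receptors, read 96.1 in this tumour and at most 11.97 in the other untreated p53-null tumours, a log2 difference of 3.52 from the group median. In the same tumour Mdm2, which encodes a ubiquitin ligase for p53, read 326.6 against 15.5 to 32.3, and Cct2, a chaperonin subunit, read 4192, a difference of 3.79. No other test was made of these values.

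FGF ligands were high in single p53-null tumours. Fgf3 read 35.7 in Doxo_2688, 14.8 in Untreated_1556i and 19.9 in Untreated_2493ra, and Fgf8 read 14.3 in Untreated_2119, 19.5 in Untreated_2493ra and 3.92 in Doxo_2688, on the protein-coding scale. Fgf10, named after its values were seen, read 18.6 in Untreated_2493 and at most 2.53 in treated p53-null tumours. In p21-null and wild-type tumours Fgf3 was at most 0.55, Fgf8 at most 1.15 and Fgf10 at most 0.77. The other tumours of the mice of Untreated_1556i and Untreated_2493ra are Untreated_1556 and Untreated_2493.

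Gas6, which the rule leaves out and which encodes a ligand of the TAM receptors, read 687.9 in Doxo_2551rc, 2.42 above the group median on the log2 scale, within the segment where that tumour was high.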
